A study of Mus musculus with 38 samples.

Results

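The glucocorticoid receptor (GR) and the cAMP response element binding protein (CREB) were mapped in the same hormone treatment, and the sites of the pair were set against each other. Members were all sites in the list of GR and the list of CREB from primary mouse hepatocytes given 10 nM glucagon plus 1.7 uM corticosterone for 1 h. The GR list held 11892 sites and the CREB list 42090, together 53982 of the 278566 regions in the 11 lists used from the series. Both antibodies were used on hepatocytes isolated by collagenase perfusion from C57BL/6 mice, with 2 libraries per factor. Nothing in the labels says that the libraries of a factor came from separate animals or cultures. GR was precipitated with a mixture of 3 antibodies and CREB with 1 monoclonal antibody. All 4 libraries received both hormones, and no GR list from untreated or single-hormone hepatocytes was analysed here. Peak lists hold no expression values, so the labelled cell type could not be checked against marker genes. The wider study covers fed and fasted liver and 38 samples in 15 groups, and concerns how transcription factors and acetylated histones in liver chromatin differ with fasting.

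Glucagon and corticosterone both rise in fasting. Glucagon acts through cAMP and protein kinase A, which phosphorylates CREB, a factor that sits on cAMP response elements of gluconeogenic and other genes. Corticosterone binds GR, a nuclear receptor that then enters the nucleus and binds glucocorticoid response elements, often in chromatin that other factors have already opened. Hepatocytes respond to both signals when they make glucose during fasting.

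A site was called co-bound when it had at least 1 base in common with a site of the other factor. The word describes positions in a pair of lists, and does not show that both proteins were on the same DNA molecule or in the same cell. Each list gives 1 highest tag density (the authors' measure of signal at a site, here called density) for both libraries together. No spread between libraries and no test can therefore be given, and intervals below are 95% Wilson intervals for counting error only. Density has no stated normalisation, and the depth behind each list is unknown, so density was used only to rank sites within a list. Positions are in mm9, as deposited. No genome or gene annotation of that build was used here, so sites carry no gene names and no sequences.

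The counts of co-bound sites were near each other, while their shares differed with the lengths of the lists. Of the GR list, 5074 sites (42.7%, interval 41.8 to 43.6) were co-bound and 6818 were GR-only. Of the CREB list, 4803 sites (11.4%, interval 11.1 to 11.7) were co-bound and 37287 were CREB-only. The GR list covered 5.70 Mb and the CREB list 31.2 Mb. The CREB list was also reduced to its 11892 densest sites, the length of the GR list. The shares were then close to each other, at 30.5% of GR sites and 28.5% of CREB sites.

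The co-bound sites formed 5120 pairs and were mostly matched one to one. Of the co-bound GR sites, 5032 touched a single CREB site, and 42 touched more than 1. Of the co-bound CREB sites, 4534 touched a single GR site, and 269 touched more than 1. Of all pairs, 27 (0.527%) overlapped by 50 bases or fewer, the smallest overlap being 2 bases. On the other side of the limit, 16 GR-only sites lay within 50 bp of the edge of a CREB site and 186 (2.73%) within 500 bp. Stricter rules differed in their effect. When at least 50% of the shorter site had to be covered, 42.1% of GR sites and 11.3% of CREB sites were co-bound. When both sites had to be covered to at least 50%, 22.2% of GR sites and 6.28% of CREB sites were co-bound. That rule also drops a GR site that lies wholly inside a much wider CREB site.

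The co-bound share of GR sites went with their density. Each list was divided into 10 deciles by density, from 1 (lowest) to 10 (densest). In decile 1 of the GR list 4.07% of sites were co-bound (interval 3.08 to 5.37), in decile 5 21.1%, in decile 6 50.7% and in decile 10 92.2% (90.6 to 93.6). The whole-list share of 42.7% thus joined lower deciles that were mostly GR-only and upper deciles that were mostly co-bound. All of the 100 densest GR sites were co-bound, as were 478 of the 500 densest, 922 of the 1000 densest and 4096 of the 5000 densest. Because many GR sites have equal densities, with 1268 distinct values, tied sites were kept in the same decile.

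The share among CREB sites climbed later and less far. In deciles 2 to 4 of the CREB list between 2.21% and 2.68% were co-bound, in decile 8 14.1%, in decile 9 23.3% and in decile 10 44.8% (interval 43.3 to 46.3), beside 11.4% of the whole list. Decile 1 stood above its neighbours at 6.15% (5.46 to 6.91). Of the 100 densest CREB sites 46 were co-bound, of the 500 densest 233, of the 1000 densest 466 and of the 5000 densest 2121. Most of the densest CREB sites thus had no GR site, while the densest GR sites nearly all had a CREB site. Of the 100 densest GR sites, 34 lay at one of the 100 densest CREB sites, and of the 5000 densest, 2215 lay at one of the 5000 densest.

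**Figure D1:**
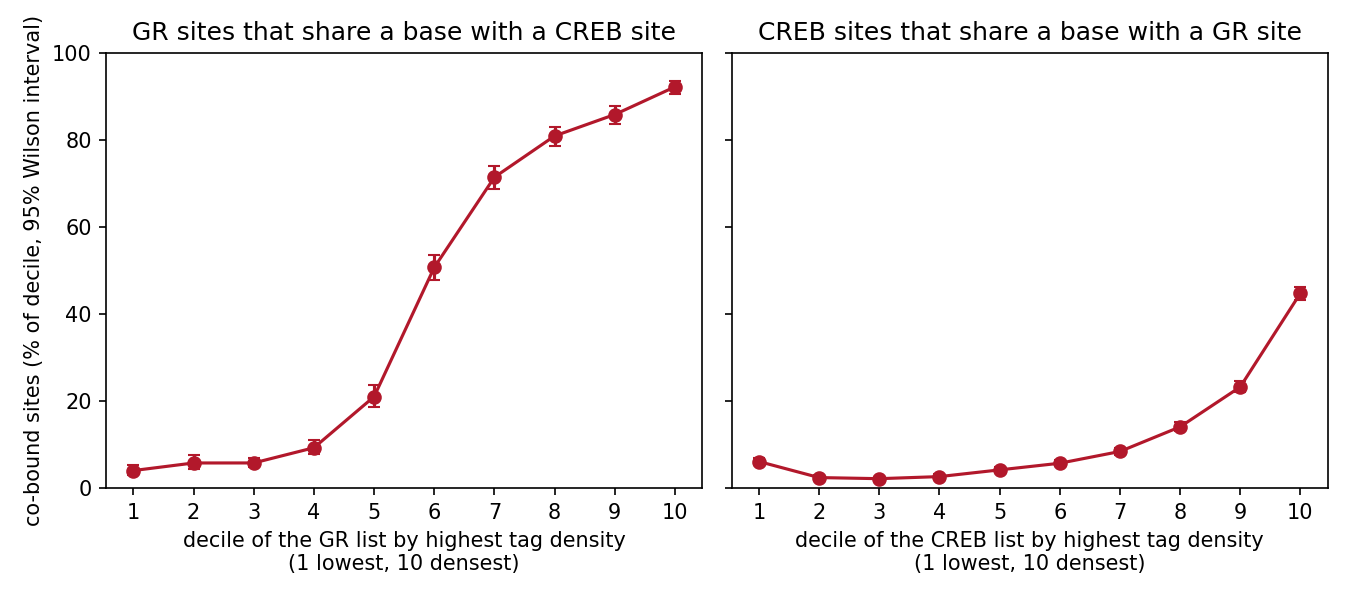
Share of sites that were co-bound (vertical axis, percent, with 95% Wilson intervals) in each decile of the GR list (left) and the CREB list (right), ordered by density. GR sites climb from 4.07% to 92.2%, and CREB sites reach 44.8% in decile 10.

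Where both factors were present, their densities ranked alike. The Spearman correlation between GR density and CREB density was 0.68 over the 5120 pairs, a description across sites that share chromatin preparation method, treatment and build, and that are not independent. Of the pairs in the densest quartile for GR, 64.4% were also in the densest quartile for CREB and 3.90% in the lowest. Of the pairs in the lowest quartile for GR, 62.7% were in the lowest for CREB and 4.11% in the densest. In all, 51.8% of pairs fell in the same quartile and 87.8% at most 1 quartile apart. In the second GR quartile 40.8% of pairs were in the matching CREB quartile, and in the third 39.8%. The lowest and densest quartiles have a neighbour on a single side only. Higher matching there is partly built into the grid and does not show tighter agreement at the ends.

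**Figure D2:**
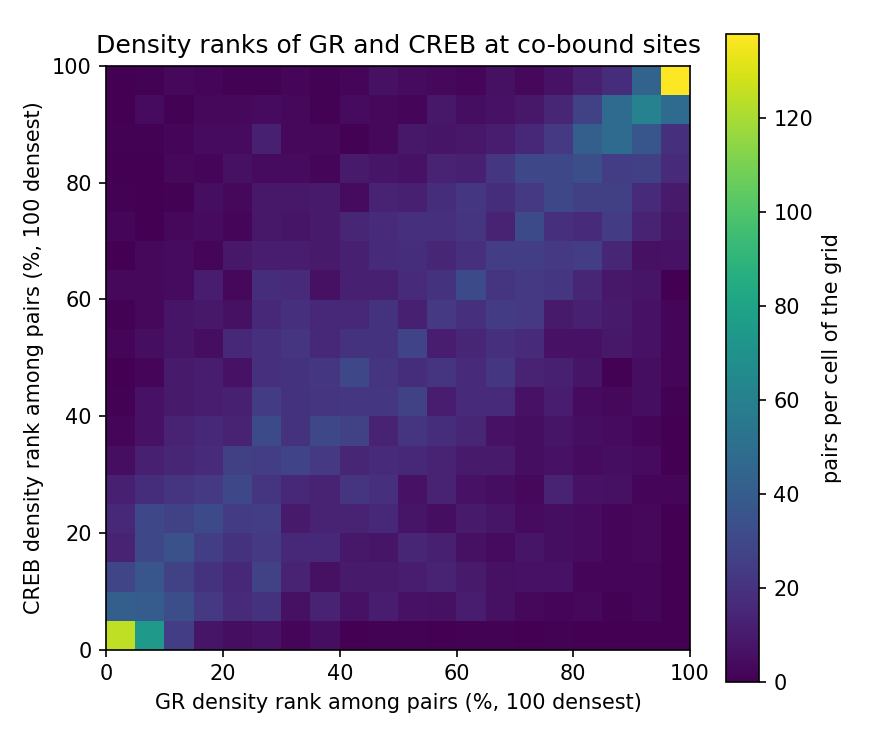
Number of pairs in a grid of GR density rank (horizontal, percent) against CREB density rank (vertical, percent) over the 5120 co-bound pairs. Pairs concentrate along the diagonal and in its lower left and upper right corners, with a Spearman correlation of 0.68.

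The leading sites show the same agreement. The densest GR site (300.5 in the GR list) spanned 150058675 to 150059968 of chromosome 4. Its CREB site, from 150058545 to 150060125, ranked 3 for CREB with 867.5, and the midpoints were 13.5 bp apart. GR rank 2 was on chromosome 2 from 154878056 to 154879186 (density 277.9), and its CREB site ranked 16 with 631.3 at 17.5 bp. GR rank 4 was on chromosome 11 from 11744181 to 11745158 (194.9), over CREB rank 124 with midpoints 4.5 bp apart. These 3 sites were also present in the CREB lists of untreated and glucagon-treated hepatocytes. Another site of chromosome 4, from 150129208 to 150130288, ranked 8 for GR (164.9) and 6 for CREB (730.9).

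Agreement at the top was not complete. The third densest GR site, on chromosome 17 from 39979757 to 39985997, was 6240 bp wide with a density of 214.8. Its CREB site was also 6240 bp wide, with midpoints 25 bp apart, and ranked only 1235. The GR site overlapped no region of any liver list. No sequence was read for it, and the reason for the equal widths was not tested. Among pairs in the upper 1% for GR, the lowest CREB rank was 6499, on chromosome 3 from 84128520 to 84129400 (GR density 63.1, CREB density 32.1). That CREB site still stood above 84.6% of its list. The upper 1% of the CREB list holds more sites than that of the GR list, so extremes in the other direction do not compare spread. There the 3 lowest GR partners had GR ranks between 4972 and 6166 and densities between 3.62 and 4.85. These partners stood above between 48.1% and 58.0% of the GR list. The densest CREB site of all, on chromosome 7 from 52972710 to 52974278 (density 978.9), is such a case. Its GR site, from 52974229 to 52974703, had a density of 4.33 and touched only its edge, with midpoints 972 bp apart.

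Rank agreement was present in every quartile of width. Density and width went together within each list (Spearman correlation 0.60 for GR and 0.83 for CREB over all sites), so pairs were split into quartiles by CREB width. The Spearman correlation between GR and CREB density was 0.63, 0.65, 0.70 and 0.63 from the narrowest to the widest quartile. Split by GR width it was 0.52, 0.54, 0.56 and 0.70. The widths of paired sites agreed less than their densities, with a Spearman correlation of 0.33. Over 20 chromosomes with at least 50 pairs the median Spearman correlation was 0.68, with the lowest, 0.34, on chromosome X (143 pairs) and the highest, 0.75, on chromosome 9 (246 pairs).

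GR density followed CREB density of the matching hormone treatment more closely than that of other treatments. A set of 3438 GR sites overlapped a CREB site in each of the 3 hepatocyte CREB lists. At these same sites the Spearman correlation with GR density was 0.68 for CREB under both hormones, 0.51 for CREB under glucagon alone and 0.28 for CREB in untreated cells. The comparisons share the GR list, the differences between these values were not tested, and the untreated list rests on 1 library, named against itself. Restricted to 3078 of these sites on autosomes and away from liver phospho-CREB sites, the values were 0.70, 0.50 and 0.26. In the upper part by GR density (1747 sites) they were 0.59, 0.34 and 0.17. Over all 3438 sites, CREB density under both hormones had a Spearman correlation of 0.83 with CREB density under glucagon and 0.55 with untreated. Between glucagon and untreated it was 0.66. By position the lists differed less. The share of GR sites with a CREB site was 42.7% under both hormones, 37.1% (36.2 to 38.0) under glucagon and 39.1% (38.2 to 40.0) in untreated cells, from CREB lists of 42090, 28229 and 47596 sites.

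Midpoints of paired sites were mostly within 100 bp. The median distance between them was 74.75 bp, with quartiles of 30.0 and 206.0 bp, and it was 42 bp when both sites had to be covered to at least 50%. Midpoints were within 50 bp in 38.7% of pairs (interval 37.3 to 40.0), within 100 bp in 57.9%, within 200 bp in 74.4% and within 500 bp in 91.7%. The GR midpoint fell in the central 20% of the CREB site in 57.4% of pairs, in the outermost 20% at either end in 6.21% and outside the CREB site in 2.66%. No side was favoured, with the GR midpoint at the higher coordinate in 50.4% and at the lower in 49.4%. The GR site was wholly inside the CREB site in 85.6% of pairs, and the CREB site inside the GR site in 3.28%. A GR site inside a wider CREB site has its midpoint kept away from the edges, and no share for such containment alone was computed to set beside the 57.4%. A typical pair had 530 bases in common, which was all of the GR site and 52.1% of the CREB site at the medians.

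Distance followed the width of the CREB site and hardly the density of either factor. In CREB sites of 251 to 811 bp the median distance was 48.0 bp, and in those of 812 to 1053 bp it was 44.5 bp. It was 73.3 bp in the next quartile and 331.5 bp in sites of 1407 to 11301 bp, where 10.1% of pairs were within 50 bp. The Spearman correlation between distance and CREB width was 0.49. It was 0.04 between distance and CREB density and -0.11 between distance and GR density. Sites that must share a base can have midpoints further apart when they are wider, so part of the relation with width is built in. Pairs with midpoints within 50 bp had a density Spearman correlation of 0.74 and those over 200 bp apart 0.58. Midpoints are centres of called intervals, not summits, so the distance in wide sites need not be that between the strongest points.

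**Figure D3:**
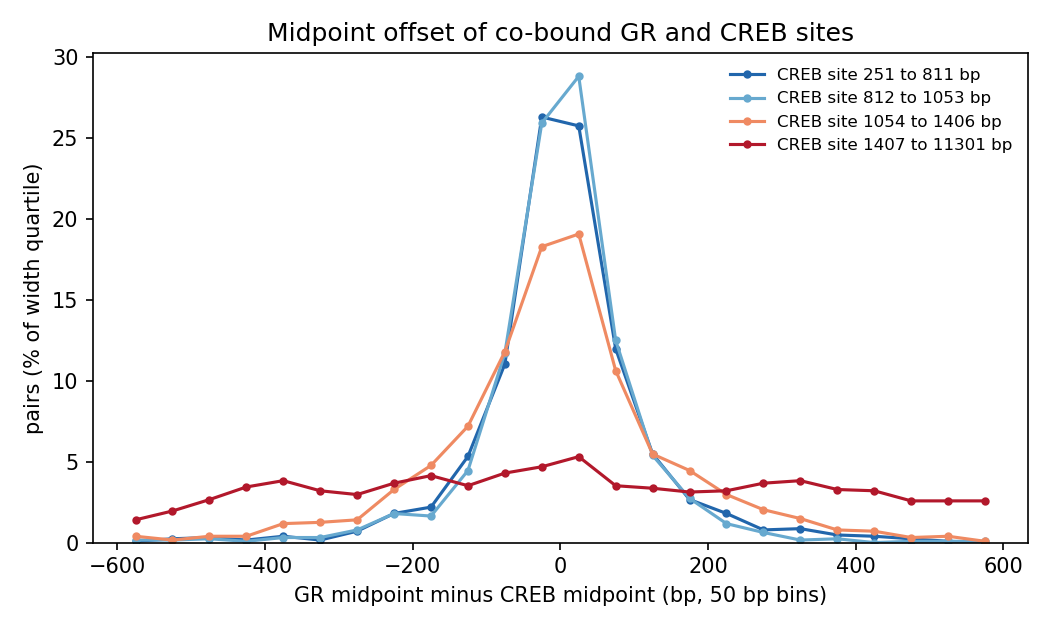
GR midpoint minus CREB midpoint (horizontal, bp, in 50 bp bins) as a percent of the pairs in each quartile by CREB width (vertical). Bins run from -600 to 600 bp, and pairs further apart are not drawn. The 3 narrower quartiles peak at 0 on both sides alike, whereas sites of 1407 bp or more are spread out, with a median distance of 331.5 bp.

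Most single-factor sites had no site of the other factor nearby, which follows in part from a class that excludes any overlap. The nearest CREB midpoint was a median of 50912.5 bp from a GR-only site, and 2.38% of GR-only sites (162) had one within 1 kb. For CREB-only sites the nearest GR midpoint was 83871 bp away at the median, and 0.925% (345) had one within 1 kb. Within 5 kb the shares were 12.9% of GR-only and 8.40% of CREB-only sites. No spacing of unrelated sites was computed to set beside these values. A gap of up to 500 bp between edges, allowed in place of an overlap, raised the co-bound share of GR sites only to 44.2%.

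Over the whole of each list, co-bound sites were the wider ones. Co-bound GR sites had a median width of 544 bp (quartiles 378 and 713.8) and GR-only sites 356 bp (276 and 455), a ratio of 1.53. Co-bound CREB sites had a median width of 1023 bp (801 and 1327) and CREB-only sites 619 bp (418 and 857), a ratio of 1.65. No site of either list was narrower than 251 bp, a width that 1012 GR and 1799 CREB sites had. Sites over 1000 bp made up 6.88% of co-bound GR sites and 0.440% of GR-only sites, and 52.2% of co-bound CREB sites and 16.7% of CREB-only sites. Within pairs the CREB site was wider in 92.9%, by a median factor of 1.88.

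**Figure D4:**
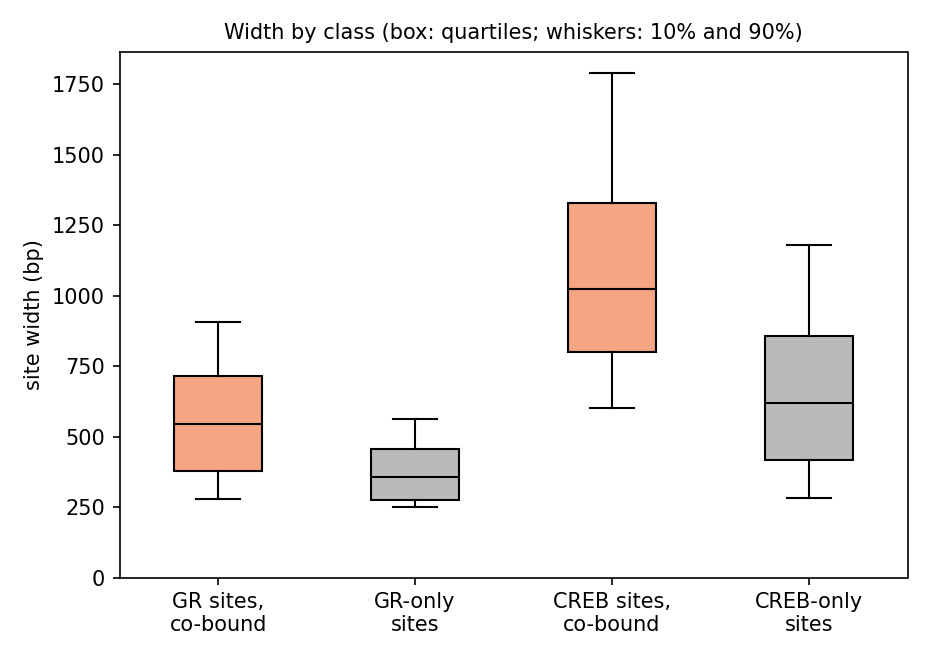
Site width (vertical, bp) of co-bound GR, GR-only, co-bound CREB and CREB-only sites. Boxes give quartiles with the median, and whiskers the 10% and 90% points. Medians are 544, 356, 1023 and 619 bp.

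Since density and width went together, width was also read within deciles of density. In decile 10 of the CREB list co-bound sites were no wider than CREB-only sites, with medians of 1247 and 1270 bp. In decile 9 the medians were 994.5 and 979 bp. Lower down the CREB gap was present, with 406.5 bp for co-bound and 288 bp for CREB-only sites in decile 1. GR sites had another pattern. Co-bound and GR-only sites had medians of 284 and 272 bp in decile 1 and of 377.5 and 328 bp in decile 2. Co-bound GR sites were the narrower ones in decile 3 (352 and 363 bp) and decile 6 (338 and 366 bp). The medians were close in decile 4 (402.5 and 392 bp), decile 5 (409 and 394 bp) and decile 7 (400 and 393 bp). Co-bound GR sites were wider again in decile 8 (486.5 and 435.5 bp), decile 9 (616 and 556.5 bp) and decile 10 (804 and 572 bp). Read by width, co-bound shares of GR sites were 23.4% up to 300 bp, 62.9% between 500 and 750 bp and 95.4% over 1500 bp. For CREB sites they were 1.89%, 5.20% and 37.1%. With every site replaced by a 500 bp window around its midpoint, 39.6% of GR and 11.005% of CREB sites were co-bound.

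H3K27ac, a histone acetylation that marks active regulatory DNA, was read from liver of fed and fasted mice, not from the hepatocytes themselves. In the list of 24 h fasted liver, 46.1% of co-bound GR sites (interval 44.8 to 47.5) and 3.71% of GR-only sites (3.29 to 4.19) lay in an H3K27ac region, against 21.8% of all GR sites. With 500 bp windows the values were 46.2% and 3.83%. The fed list gave 42.1% and 3.42%, against 19.9% of all GR sites. The 10 h fasted list gave 59.1% and 11.04%, against 31.6% of all GR sites. At like density co-bound GR sites had the higher share in 9 of 10 deciles, the exception being decile 10 with 63.7% of co-bound and 87.1% of GR-only sites. The intervals overlapped in decile 9. In decile 7 the shares were 44.6% of 819 co-bound sites and 8.56% of 327 GR-only sites.

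CREB sites behaved differently, and the whole list hid the direction seen at like density. In H3K27ac regions of 24 h fasted liver lay 47.7% of co-bound CREB sites (46.2 to 49.1) and 43.7% of CREB-only sites (43.2 to 44.2). Over the whole list 44.1% of all CREB sites lay there. With 500 bp windows the values were 45.7% and 43.1%. The fed list gave 43.45% of co-bound and 43.36% of CREB-only sites, and the 10 h fasted list 59.9% and 52.0%. In each of the 10 deciles of the CREB list, however, the co-bound share in the 24 h list was the lower one, with overlapping intervals in deciles 2 and 3. It was 63.6% against 79.0% in decile 10, 41.1% against 62.5% in decile 8 and 30.1% against 47.0% in decile 5. The higher whole-list share of co-bound sites in the 24 h list thus goes with their place in the upper deciles. The CREB list of untreated cells held 75.2% of co-bound and 58.8% of CREB-only sites, against 60.7% of all CREB sites. By decile the co-bound share was higher in deciles 1 to 4 (33.1% against 14.7% in decile 1) and lower in deciles 5 to 10 (89.6% against 97.9% in decile 10).

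The 5 densest CREB-only sites had densities of 663.5 to 773.9 and ranks 4 to 11. The first lay on chromosome 8 from 126472361 to 126474149, with the nearest GR midpoint 209985.5 bp away. All 5 overlapped sites in both other hepatocyte CREB lists and in both liver CREB lists. They also overlapped both liver phospho-CREB lists and the H3K27ac list of 24 h fasted liver. Dense co-bound sites were similar. Of the 5 co-bound sites densest in CREB, 5 were in the untreated list and 4 in the glucagon list. In a liver phospho-CREB list were 4, and in that H3K27ac list 4. Of all CREB-only sites in decile 10, 97.9% were in the untreated list and 79.0% in that H3K27ac list. For the co-bound sites of decile 10 these shares were 89.6% and 63.6%. Phospho-CREB sites, mapped with an antibody to the phosphorylated form of CREB, were read from the fed liver list. Over the whole list 7.56% of co-bound and 3.56% of CREB-only sites overlapped one, against 4.02% of all CREB sites. The co-bound share was the higher one in deciles 1 to 8, with 3.71% against 0.637% in decile 8. It was the lower one in deciles 9 and 10, with 9.64% of co-bound and 46.0% of CREB-only sites in decile 10.

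Dense GR-only sites were few, and their overlap with phospho-CREB sites of fed liver was not particular to decile 10. The overlapping share of GR-only sites was 22.3% in decile 6, 31.8% in decile 7 and 44.4% in decile 8. For co-bound sites it was 6.39%, 5.62% and 6.04%. Decile 9 had 126 of 168 GR-only and 58 of 1021 co-bound sites there. In deciles 1 to 4 the GR-only share was the lower one. Only 93 sites of GR decile 10 lacked a CREB site, and of these 86 (92.5%) overlapped a phospho-CREB site of fed liver, against 96 of the 1103 co-bound sites of that decile (8.70%) and 9.99% of all GR sites. The CREB list of fed liver held 86 of the 93 GR-only sites (92.5%), against 28.7% of the co-bound sites of decile 10 and 16.1% of all GR sites. The CREB list of 24 h fasted liver also held 86, against 34.2% of those co-bound sites and 16.7% of all GR sites. The fasted phospho-CREB list held 87 (93.5%), against 7.89% of those co-bound sites and 9.33% of all GR sites. In the CREB list of untreated hepatocytes were 12 of the 93 (12.9%), the same share as of all GR-only sites (12.9%), against 39.1% of all GR sites. In the glucagon list were 14 (15.1%), against 4.85% of all GR-only sites and 37.1% of all GR sites. Chromosome X held 35 and chromosome Y 29 of the 93, while 16 and 1 of the 1103 co-bound sites lay there. The leading site, on chromosome X from 121307162 to 121307945, had a density of 45.4 and ranked 173 in the GR list. The next were on the same chromosome from 120115483 to 120116794 and from 120776872 to 120777302. All 5 of the densest were in all 7 liver lists and in none of the other hepatocyte CREB lists. Only 5 of the 93 lay on an autosome and away from liver phospho-CREB sites. What part chromosome and recurrence across antibodies have in these sites was not tested.

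**Figure D5:**
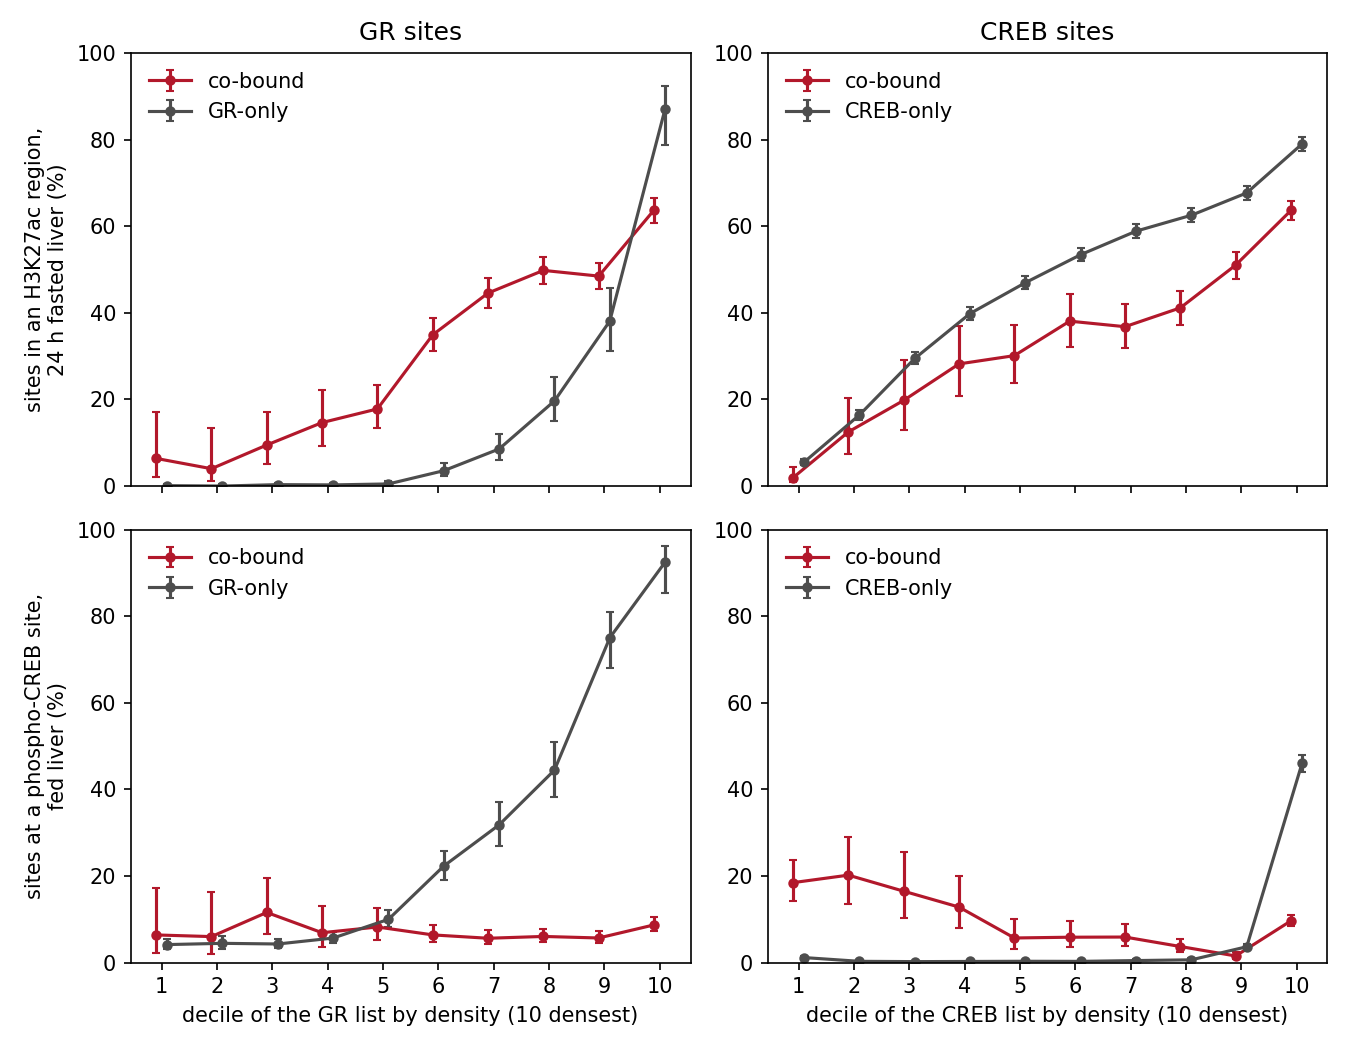
Share of sites (vertical, percent, with 95% Wilson intervals) in an H3K27ac region of 24 h fasted liver (top) or at a phospho-CREB site of fed liver (bottom), by decile of density, for GR sites (left) and CREB sites (right). Co-bound sites are red and single-factor sites grey. Dense GR-only sites climb to 92.5% at phospho-CREB sites, and the co-bound CREB share in H3K27ac regions lies under the CREB-only share in every decile.

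Chromosomes differed in the share of GR sites that were co-bound. It was 22.6% of 633 sites on chromosome X (interval 19.5 to 26.0) and 3 of 58 sites on chromosome Y. Among autosomes it lay between 33.1% on chromosome 14 and 59.8% on chromosome 19. The share of CREB sites that were co-bound lay between 9.06% on chromosome 11 and 13.9% on chromosome 13 among autosomes, and was 13.3% on chromosome X. Chromosomes 11 and 19, with the highest GR shares, also had the most CREB sites per GR site, 5.65 and 4.94. On chromosome X that number was 1.65. Pairs were mostly one to one and CREB shares varied less than GR shares, so this relation is partly built in.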

How the data were processed

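Chromatin immunoprecipitation libraries were sequenced by the authors, and their deposited peak lists were the starting point. Per the submitters' processing notes, CASAVA 1.8 and build mm9 were used. The names of the GR and CREB lists hold a pair of library numbers (for untreated CREB, 1 library against itself) and a tag that reads FDR, and only the H3K27ac list names hold the word hotspot. Aligner and caller settings are unknown. Per the file headers, each list holds a position, a highest and an average tag density (the authors' signal), and the authors' z-score and p-value. The z-score is a score per site that the authors computed before deposit, by steps not given in the sources used here, and it serves only to rank sites in an alternative and to describe them. The p-value was not used. Of 13 lists, 11 were matched to groups through library numbers; 2 lists with 8 value columns matched no sample and were not used.

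Width was end minus start. Ranks used average ranks for ties, and deciles and quartiles were taken from them. For named sites, the 5 densest per class, the 3 most discordant pairs each way, and the widest and most multiply matched sites were taken. The members and comparisons were chosen with earlier results of these data known. Overlap code was tested on simulated lists. Planned gene and sequence analyses were not run, as no mm9 reference was at hand. Computation used SciPy 1.17.1, pandas 2.3.3 and numpy 2.4.6 under Python 3.11.15, with plots from matplotlib 3.10.9. Alternatives are given in the closing section.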

Additional observations from a re-analysis of the deposited data

How the results depend on the processing

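The share of GR sites co-bound (42.7%), the share of CREB sites co-bound (11.4%), the density Spearman correlation (0.68), the median midpoint distance (74.75 bp) and the co-bound to single-factor width ratios of GR (1.53) and CREB (1.65) were recomputed, and are given in that order. They were 22.2%, 6.28%, 0.81, 42 bp, 1.76 and 1.47 when both sites had to be covered to at least 50%. With a gap of up to 500 bp allowed they were 44.2%, 12.5%, 0.63, 101 bp, 1.504 and 1.60. With 500 bp windows they were 39.6%, 11.005%, 0.71, 65.25 bp, 1.501 and 1.62. With the CREB list reduced to the length of the GR list the shares were 30.5% and 28.5%, the Spearman correlation 0.58 and the width ratios 1.61 and 1.11. In the upper 50% of each list by density the shares were 69.7% and 18.6%, the Spearman correlation 0.60 and the width ratios 1.35 and 1.28. In the upper 50% by z-score the shares were 46.9% and 12.6%, the Spearman correlation 0.74, the distance 62.5 bp and the CREB width ratio 1.27. Without chromosomes X, Y and M the share of GR sites was 43.996%. Ranking by z-score gave a Spearman correlation of 0.57. Pairs matched one to one gave a Spearman correlation of 0.70 and a distance of 66.25 bp. Without sites at liver phospho-CREB sites, an alternative chosen after seeing the data, the share of CREB sites was 10.7%, the Spearman correlation 0.71 and the distance 71 bp. A cover of at least 50% of the shorter site moved none of the 6, and average in place of highest density, also chosen after seeing the data, left the Spearman correlation at 0.69. None of these alternatives turned a direction, and the causes of the shifts were not tested.

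No paired analysis was possible because each list gives 1 value per site and no values per library. For the same reason no library was left out in turn. Read depth is unknown, and the lists differ in length, so shares depend on how many sites were called for each factor.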

Other observations

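The faintest CREB sites were co-bound more often than those just above them. In decile 1 of the CREB list 260 of 4231 sites were co-bound (6.15%), against 2.46% in decile 2. The co-bound sites of decile 1 were wider than its CREB-only sites, with medians of 406.5 and 288 bp, and had higher z-scores, with medians of 14.4 and 9.70. A phospho-CREB site of fed liver was found at 18.5% of them and at 1.16% of the CREB-only sites of that decile. Their GR partners stood low in the GR list as well, above a median of 39.3% of it, against 88.5% for the partners of CREB decile 10.

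A few very wide sites joined several sites of the other factor. The CREB site with the most GR sites, 6 of them, lay on chromosome 11 from 5905349 to 5914416, 9067 bp wide, at a density of 105.1. The GR site with the most CREB sites, 3 of them, lay on chromosome 12 from 19122826 to 19130330, 7504 bp wide. The widest co-bound GR site, 8319 bp on chromosome 13 from 55284621 to 55292940, ranked 13 by density and lay in a CREB site of 9601 bp. The widest GR-only site, 3134 bp on chromosome 8 from 56203732 to 56206866, overlapped sites of both other hepatocyte CREB lists, and its nearest CREB midpoint under both hormones was 3249.5 bp away.

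Pairs whose CREB site was in neither the untreated nor the glucagon list numbered 625. The Spearman correlation between GR and CREB density was 0.78 in these and 0.68 in the 3898 pairs whose CREB site was also in the untreated list. The median midpoint distance was 52.5 bp in the first set and 86.5 bp in the second, and the CREB sites of the first set were at most 3721 bp wide.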
